A study of Bos taurus with 14 samples.

Results

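The adipocyte genes of the mammary fat pad were taken as 6 genes, ADIPOQ, FABP4, PLIN1, LEP, LIPE and CIDEC, and every probe set whose single annotated symbol was one of them was followed. Of the 6 genes, 5 were found, with 10 probe sets among the 24016 tested. PLIN1, which codes for the main coat protein of the adipocyte lipid droplet, had no probe set under its symbol in the annotation used and is not analysed here. The signals of ADIPOQ, LEP and LIPE were among the low values of nearly every array, CIDEC was above the median of the array in 2 of 14 biopsies, and FABP4 alone had a high signal throughout. Apart from FABP4, the signals were thus mostly low and do not by themselves bear out the name of adipocyte genes in these biopsies. They do not refute it either, and the genes are called below the 6-gene set. No member passed the test in any comparison of photoperiod or day.

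Mammary tissue was biopsied from dry, pregnant Holstein cows. Milking had stopped about 60 d ahead of the date on which calving was due, and the cows were put at random under short days (SD, with 8 h light and 16 h dark) or long days (LD, with 16 h light and 8 h dark) until they calved. The groups were SD at day -9 (4 arrays), LD at day -9 (4 arrays), SD at day -24 (3 arrays) and LD at day -24 (3 arrays), with days counted relative to calving. All groups share the breed, the dry period and the tissue, and there is no group without a set photoperiod. Each array gave 1 log2 signal per probe set after robust multi-array average (RMA), a method that corrects background, makes the distributions of the arrays alike and summarises the probes of a set. Array medians lay between 6.43 and 6.61 and lower quartiles between 4.47 and 4.73. The labels name no batch and leave unstated if a cow was biopsied at both days, so the p-values measure only the spread between these 14 arrays.

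The ducts and alveoli of the mammary gland grow into a pad of fat and connective tissue, and in a gland close to calving the epithelium has taken the place of much of the fat. Adipocytes store triglyceride in a large droplet coated by perilipin and CIDE proteins, release it by hormone-sensitive lipase, and secrete hormones such as adiponectin and leptin. FABP4 carries fatty acids inside adipocytes and is also made by capillary endothelial cells and macrophages, so that it marks fat cells less sharply than ADIPOQ or PLIN1. In a bulk biopsy, fewer cells of a type and less RNA per cell cannot be told apart.

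ADIPOQ, the gene of the hormone adiponectin, was read by 1 probe set. Its log2 signals were 2.98, 3.30, 4.03 and 3.76 in SD day -9 and 3.62, 3.86, 3.82 and 3.86 in LD day -9. They were 3.61, 3.70 and 3.20 in SD day -24 and 3.58, 3.82 and 3.46 in LD day -24. All 14 values lay below the lower quartile of their array, at the 4.0th to the 17.4th percentile of its probe sets, and the 4 groups overlapped. SD day -9 was the most spread group, with a mean of 3.52 ± 0.47, against 3.79 ± 0.11 in LD day -9 (standard deviation, n = 4 each), and it held both the lowest and the highest array of the series.

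LEP, the gene of the hormone leptin, which falls in the blood as fat stores shrink, had a pair of probe sets. In the brighter one the log2 signals were 5.66, 3.01, 3.99 and 3.64 in SD day -9 and 3.17, 3.06, 3.94 and 3.55 in LD day -9. At the earlier day they were 3.28, 2.96 and 3.67 in SD and 3.21, 3.12 and 3.32 in LD. The array SD day -9 replicate 1, at the 38.7th percentile, was the only one not below its lower quartile, and the other 13 overlapped across groups. The other LEP probe set stayed between 3.04 and 3.60 in all 14 arrays, including SD day -9 replicate 1, and always below the lower quartile. The LEP probe sets were nearly unrelated across the 14 arrays (r = 0.09, rho = 0.23, permutation test p = 0.793).

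The same array, SD day -9 replicate 1, had the highest FABP4 and the lowest ADIPOQ signal of the series. Its mean level of 14 luminal epithelial markers was 0.45 above the mean of all arrays on the log2 scale, its level of 9 myoepithelial markers 0.68 above, and its level of 7 skeletal muscle markers 0.44 above. Each of these was the highest of the 14 arrays. The part of the myoepithelial and muscle markers in its LEP and ADIPOQ values was not tested.

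LIPE codes for hormone-sensitive lipase, which cleaves diglyceride in the droplet when catecholamines act on the fat cell. It had 4 probe sets, of which the 2 dimmest came from the same source sequence. The brightest gave 4.74, 4.84, 5.06 and 4.69 in SD day -9 and 4.80, 4.48, 4.59 and 4.80 in LD day -9. It gave 4.80, 4.61 and 5.37 in SD day -24 and 5.01, 4.50 and 4.57 in LD day -24. These values lay at the 25.1st to the 35.6th percentile, just above the lower quartile, with overlap of all groups. The other 3 probe sets were below the lower quartile in 14 of 14 arrays, between 3.34 and 4.12, and r between pairs of LIPE probe sets ran from -0.17 to 0.50. The pair at 0.50, the brightest with the dimmest, had an adjusted p of 0.416 (permutation test, over 18 relations within the 6-gene set). It gave r = 0.74 with the group means removed (adjusted p = 0.0149) and 0.74 without the 2 arrays farthest from the median (adjusted p = 0.0519).

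In total 5 of the 10 probe sets of the 6-gene set were below the lower quartile in all 14 arrays, as were 4246 of all 24016 (17.7%). A low signal can come from little transcript or from probes that bind it poorly, and no detection calls were used here, so it does not show that the genes were silent.

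**Figure D1:**
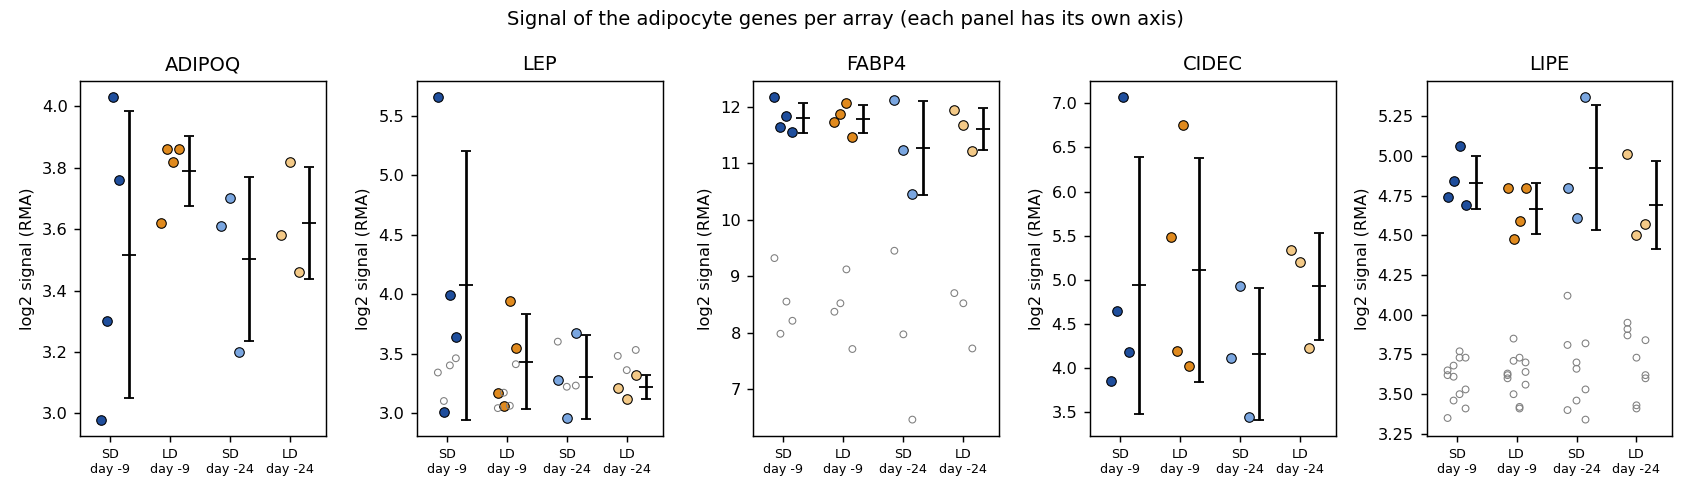
Log2 RMA signal (vertical axis, separate scale per gene) of each array in the 4 groups of photoperiod and day. Filled points are the main probe set, open grey points the other probe sets of the gene, and bars the mean ± standard deviation of the main probe set (n = 4 at day -9, n = 3 at day -24). FABP4 lies between 10.46 and 12.17 and the CIDEC values of 7.07 and 6.75 stand above the other 12 arrays.

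**Figure D2:**
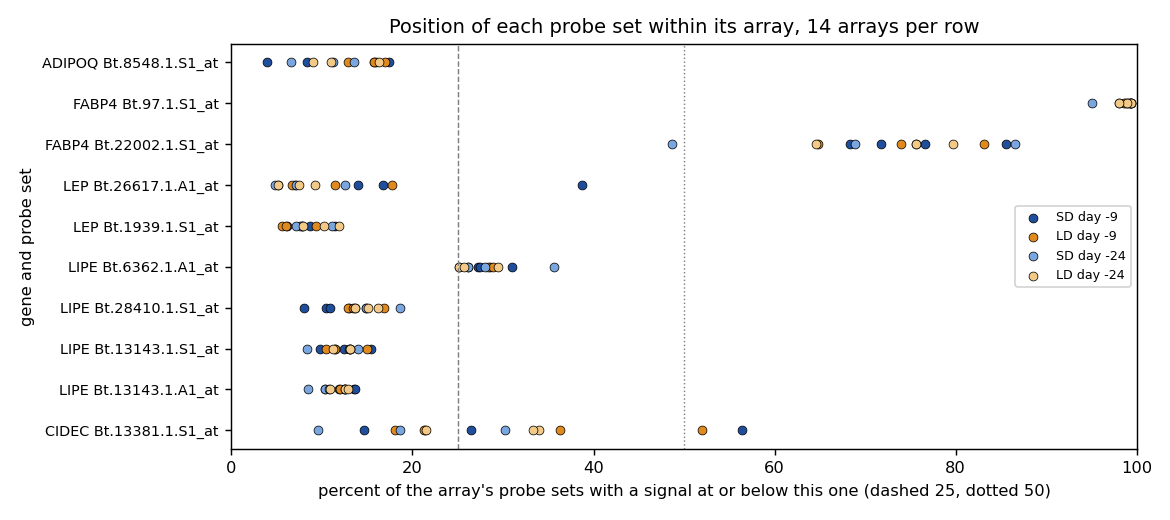
Position of each of the 10 probe sets (rows) within its array, as the percent of probe sets with a signal at or below it (horizontal axis), with 14 arrays per row coloured by group. The dashed line is the lower quartile and the dotted line the median. ADIPOQ stays between 4.0 and 17.4 percent and the brightest FABP4 probe set between 95 and 99.4 percent.

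FABP4 was the bright member. Its brighter probe set had log2 signals of 12.17, 11.64, 11.84 and 11.56 in SD day -9 and of 11.73, 11.87, 12.06 and 11.46 in LD day -9. At day -24 it had 12.12, 11.24 and 10.46 in SD and 11.94, 11.67 and 11.21 in LD. All 14 values lay at or above the 95th percentile of their array, and the groups overlapped. From the highest array, SD day -9 replicate 1, to the lowest, SD day -24 replicate 3, the range was 1.71 on the log2 scale, or 3.27-fold. Most of that range lay inside SD day -24, whose mean was 11.27 ± 0.83, against 11.61 ± 0.37 in LD day -24 (standard deviation, n = 3 each). The SD day -9 mean was 11.80 ± 0.27, beside 11.78 ± 0.25 for LD day -9 (standard deviation, n = 4 each).

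The second FABP4 probe set followed the first. Its log2 signals were 9.32, 7.98, 8.55 and 8.21 in SD day -9, against 8.37, 8.52, 9.12 and 7.71 in LD day -9. They were 9.45, 7.97 and 6.46 in SD day -24, against 8.70, 8.52 and 7.72 in LD day -24. The lowest array was again SD day -24 replicate 3. Over the 14 arrays the FABP4 probe sets correlated with r = 0.96 and rho = 0.97 (permutation test, 2-sided, p = 1e-05, the smallest that the resamples can give, adjusted p = 0.00018 over 18 relations within the 6-gene set). With the group means removed r was 0.98, and without the 2 arrays farthest from the median, SD day -24 replicate 3 and LD day -24 replicate 3, it was 0.92. The spread of FABP4 within groups was thus read alike by both probe sets. It was wide, with a standard deviation within groups of 0.45 for the first probe set and 0.84 for the second, against a median of 0.24 over all probe sets.

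CIDEC, which joins lipid droplets into larger ones, varied most. Its log2 signals were 3.85, 4.65, 7.07 and 4.18 in SD day -9 and 5.48, 4.19, 6.75 and 4.02 in LD day -9. In SD day -24 they were 4.11, 4.93 and 3.44, and in LD day -24 they were 5.34, 5.20 and 4.23. The arrays SD day -9 replicate 3 and LD day -9 replicate 3 were the only ones above the median of their array, and 7 of 14 were below the lower quartile. The range was 3.63 on the log2 scale, or 12.4-fold. The standard deviation within groups, 1.15, exceeded that of 99.5% of all probe sets. In LD day -9 replicate 3 the level of 11 fibroblast and matrix markers was 0.37 above the mean of all arrays, the highest of the 14 arrays. Its level of 9 endothelial markers was 0.30 above, the joint highest. The array that shared it, SD day -24 replicate 3, had the lowest CIDEC signal, 3.44. In SD day -9 replicate 3, which had the higher CIDEC signal, the fibroblast and matrix level was -0.02 and the endothelial level 0.22. The part of these markers in the CIDEC signals was not tested.

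The question of the study was how photoperiod in late gestation acts on the mammary transcriptome. At day -24, the FABP4 difference, SD minus LD on the log2 scale, was -0.34 (95% interval -1.06 to 0.39, adjusted p = 1, limma), which did not pass the test. Without SD day -24 replicate 3 it was 0.07. CIDEC differed by -0.76 (95% interval -2.54 to 1.01), ADIPOQ by -0.12 (-0.62 to 0.38), LIPE by 0.23 (-0.20 to 0.66) and LEP by 0.09 (-0.97 to 1.14). None of the 10 probe sets was called, and the share called among all probe sets was 0%. At an unadjusted p under 0.05, 0 of the 10 and 2.42% of all probe sets were counted.

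At day -9 the FABP4 means of SD and LD differed by 0.02 (95% interval -0.60 to 0.65), which leaves room for a change of up to 1.57-fold higher or to 0.66 of the LD level. CIDEC differed by -0.17 (-1.71 to 1.36), and each photoperiod held 1 of the high arrays. Without SD day -9 replicate 3 the CIDEC difference was -0.88, and without LD day -9 replicate 3 it was 0.38. LEP differed by 0.64 (-0.27 to 1.56), and by 0.11 without SD day -9 replicate 1. ADIPOQ differed by -0.27 (-0.70 to 0.17) and LIPE by 0.16 (-0.21 to 0.53). Again 0 of 10 probe sets were called, with 0% of all, and at an unadjusted p under 0.05 they were 0 of 10 against 2.77% of all. The smallest adjusted p among the members was 0.984 (limma).

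Between the days, the members' main probe sets had small differences under LD. Day -9 minus day -24 was 0.17 for FABP4 (95% interval -0.51 to 0.85), 0.18 for CIDEC (-1.47 to 1.84), 0.21 for LEP (-0.78 to 1.20) and 0.17 for ADIPOQ (-0.30 to 0.63). LIPE gave -0.02. None of 10 was called, with 0% of all probe sets, and at an unadjusted p under 0.05 none of the 10 was counted against 7.47% of all.

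Under SD the day difference was 0.53 for FABP4 (95% interval -0.15 to 1.20, adjusted p = 0.970, limma), 0.78 for CIDEC (-0.88 to 2.43), 0.77 for LEP (-0.22 to 1.76), 0.02 for ADIPOQ and -0.09 for LIPE. These values are of the main probe sets, and the dimmer LEP probe set gave -0.03. Each of the 3 larger values rested mostly on 1 array. FABP4 gave 0.12 without SD day -24 replicate 3, CIDEC gave 0.07 without SD day -9 replicate 3, and LEP gave 0.24 without SD day -9 replicate 1. With the luminal epithelial level of each array as a covariate, the LEP value was -0.19. That level itself ran from -0.17 to -0.07 in SD day -24 and from -0.04 to 0.45 in SD day -9. Its highest value was in SD day -9 replicate 1. The covariate can thus take up part of the day difference itself, and the 2 were not separated. No probe set of the 10 was called and 0% of all were. At an unadjusted p under 0.05, 1 of 10 was counted, against 4.56% of all.

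That one was the second brightest LIPE probe set, with log2 signals of 3.35, 3.46, 3.73 and 3.41 in SD day -9, against 4.12, 3.70 and 3.82 in SD day -24. The groups overlapped, since 3.73 in SD day -9 was above 3.70 in SD day -24. The difference was -0.39 (95% interval -0.67 to -0.12, unadjusted p = 0.0092, adjusted p = 0.970, limma), on signals that were all below the lower quartile. In the same comparison the brightest LIPE probe set gave -0.09. The other 2, which came from the same source sequence, gave 0.19 and 0.01. The 4 LIPE probe sets thus did not share a direction.

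Averaged over photoperiods, the day difference was 0.35 for FABP4 (95% interval -0.13 to 0.83, adjusted p = 0.707, limma), 0.48 for CIDEC (-0.69 to 1.65), 0.49 for LEP (-0.21 to 1.19), 0.09 for ADIPOQ and -0.06 for LIPE. The dimmer LEP probe set gave -0.16 (-0.36 to 0.05), so the LEP probe sets did not share a direction between days. The share called was 0 of 10 members and 0% of all. At an unadjusted p under 0.05 the second brightest LIPE probe set alone was counted among the members, with -0.25, against 7.72% of all. Averaged over days, SD minus LD was -0.16 for FABP4, -0.47 for CIDEC, 0.36 for LEP, -0.19 for ADIPOQ and 0.20 for LIPE, with 0 of 10 called, 0% of all called and 0 of 10 against 1.94% of all at an unadjusted p under 0.05. The photoperiod by day interaction, the day difference in SD minus that in LD, was 0.36 for FABP4 (-0.60 to 1.32) and 0.59 for CIDEC (-1.75 to 2.94). It was 0.56 for LEP, -0.15 for ADIPOQ and -0.07 for LIPE, with 0 of 10 and 0% of all called, and 0 of 10 against 4.15% of all at an unadjusted p under 0.05.

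In none of the 4 comparisons of group pairs did any of the 10 probe sets separate without overlap. The share of all probe sets that did was 5.67% for SD against LD at day -24, 2.46% for SD against LD at day -9, 8.98% for day -9 against day -24 in LD and 5.9% for the same days in SD. With 3 or 4 arrays a group the intervals were wide: for day -9 against day -24 in SD, that of CIDEC ran from 0.54-fold to 5.40-fold, that of LEP from 0.86-fold to 3.39-fold and that of FABP4 from 0.90-fold to 2.31-fold.

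**Figure D3:**
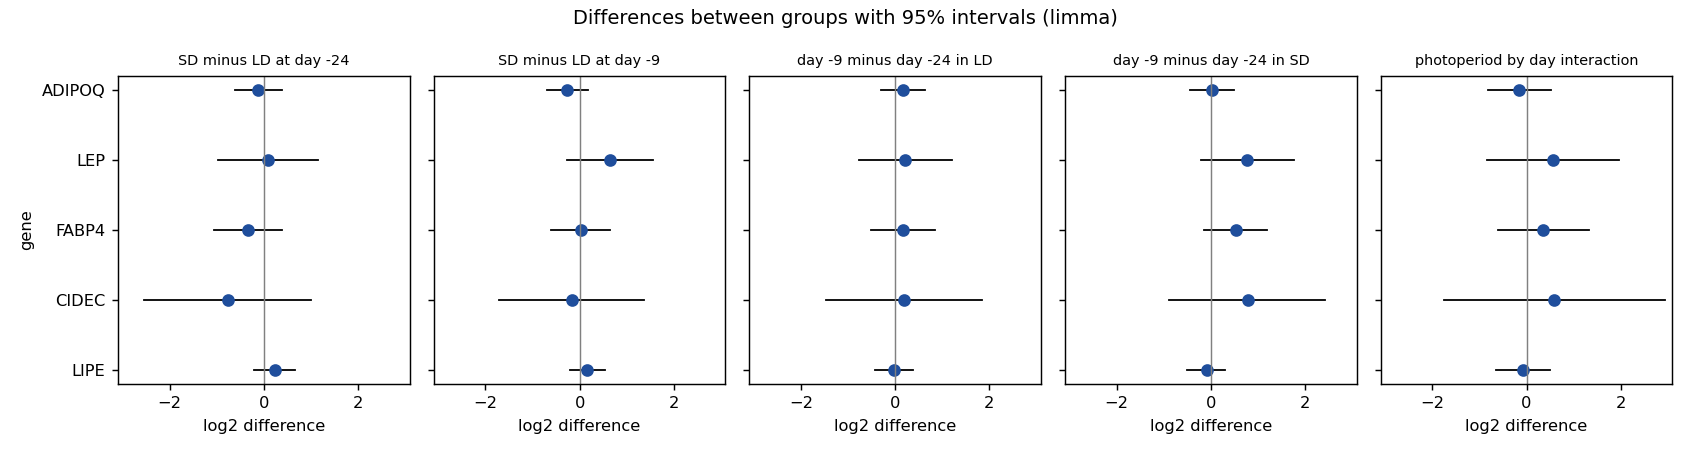
Log2 difference (horizontal axis) with its 95% interval from limma for the main probe set of each of the 5 genes (rows), in 5 comparisons. Every interval includes 0, and CIDEC has the widest in each comparison, such as -2.54 to 1.01 for SD minus LD at day -24.

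Further genes with a part in fat cells were taken from 7 lists of 103 genes, of which 75 had a probe set. Some, such as LPL and CD36, also act in mammary epithelium, so the lists do not measure fat cells alone. The lists cover the lipid droplet and lipolysis (16 of 23 genes with the members included), secreted adipokines (12 of 14), receptors of adipokines and hormones (7 of 10), adipogenic transcription regulators (14 of 21), fatty acid handling and triglyceride synthesis (20 of 20), further adipocyte markers (17 of 21) and brown fat (5 of 12). None of the 75 genes passed the test in any of the 7 comparisons, in either direction. Their median difference was -0.01 for SD minus LD at day -24, -0.02 for SD minus LD at day -9, and 0.07 for day -9 minus day -24 averaged over photoperiods. The medians over all 9155 named genes were 0.04, -0.04 and 0.02 in the same 3 comparisons. By list, the medians of SD minus LD at day -24 ran from -0.11 for the transcription regulators to 0.13 for the receptors, and at day -9 from -0.25 for brown fat to 0.13 for the receptors. Between days they ran from 0.03 for brown fat to 0.16 for the transcription regulators, whose median was 0.08 with the mean of all probe sets of each gene. The lipid droplet list had -0.05 for SD minus LD at day -24, -0.08 for the same difference at the later day and 0.10 between days.

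Among genes of the lipid droplet, G0S2, an inhibitor of the lipase that begins triglyceride breakdown, had log2 signals of 7.58, 8.84, 8.73 and 8.64 in SD day -9 and of 9.25, 8.94, 9.66 and 9.21 in LD day -9. The groups did not overlap, which held for 2.46% of all probe sets, and the difference was -0.82 (95% interval -1.59 to -0.05, unadjusted p = 0.0393, adjusted p = 0.984, limma), so the test was not passed. CAV2, a caveolin of the cell membrane, differed by 0.32 in the same comparison (adjusted p = 0.984, limma). These were the only 2 of the 75 with an unadjusted p under 0.05 at day -9, a share close to the 2.77% of all probe sets, and none had one for SD minus LD at day -24, against 2.42% of all.

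Between the days, 3 of the 75 genes were higher and 3 lower at an unadjusted p under 0.05, averaged over photoperiods, against 7.72% of all probe sets in either direction. LPL, the lipase that frees fatty acids from blood lipoproteins for both fat cells and milk-forming epithelium, differed by 0.73 (adjusted p = 0.643, limma). Its log2 signals were 11.34, 9.70, 9.80 and 9.85 in SD day -9 and 10.44, 8.74 and 8.92 in SD day -24. In LD they were 10.43, 9.23, 10.01 and 9.60 at day -9 and 9.44, 9.30 and 8.73 at day -24. The highest LPL value was again in SD day -9 replicate 1, and the days overlapped in both photoperiods. GPD1, which makes the glycerol backbone of triglyceride, differed by 0.48 and PPARA, a receptor that drives fatty acid oxidation, by 0.23. ACLY, which makes acetyl-CoA for fatty acid synthesis, differed by -0.34, CAVIN2 by -0.39 and CAV2 by -0.27. Adjusted p-values of these 6 lay between 0.636 and 0.643 (limma).

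CIDEA, a relative of CIDEC that also acts on lipid droplets and is abundant in brown fat and in the lactating mammary gland of mice, differed between days by 1.09 (95% interval -0.07 to 2.25, adjusted p = 0.654, limma). Its log2 signals were 10.44, 7.29, 7.69 and 8.72 in SD day -9 and 8.86, 6.0 and 7.12 in SD day -24. In LD they were 8.40, 8.09, 9.26 and 9.53 at day -9 and 8.28, 8.37 and 6.89 at day -24. The days overlapped in both photoperiods. UCP1, the uncoupling protein that defines brown fat, stayed between 2.69 and 3.22 in all 14 arrays.

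The members did not move as 1 group between arrays. With all 14 arrays, the highest correlation among the 10 pairs of main probe sets was that of ADIPOQ with CIDEC (r = 0.57, rho = 0.42, permutation test p = 0.0328, adjusted p = 0.295 over 18 relations), with 0.56 after removal of the group means and 0.41 without the 2 arrays farthest from the median. FABP4 with CIDEC gave r = 0.40 and rho = 0.21, and FABP4 with ADIPOQ gave r = 0.21 and rho = 0.03. ADIPOQ with LEP gave r = -0.44 and rho = -0.04 with all arrays, and r = 0.58 without SD day -24 replicate 3 and SD day -9 replicate 1 (adjusted p = 0.258), so its sign rests on those arrays. FABP4 with LEP gave r = 0.29, and 0.52 without the 2 arrays farthest from the median.

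FABP4 had a high signal throughout. CIDEC had the widest spread within groups, though it was below the lower quartile in 7 of 14 arrays. Both were set against each of the 75 further genes over the 14 arrays, 150 relations in all. The 4 with an adjusted p under 0.05 for r were named after their values were seen, and none of the 150 reached an adjusted p under 0.05 for rho. FABP4 went with FABP5, a further fatty acid binding protein (r = 0.89, rho = 0.75, permutation test, adjusted p = 0.0060 for r and 0.169 for rho). It also went with CD36, a fatty acid transporter of fat cells, endothelium and mammary epithelium (r = 0.81, rho = 0.74, adjusted p = 0.0230 for r and 0.169 for rho). Genes outside the 75 went with FABP4 about as closely, such as ATG4A (r = 0.91), BTNL9 (0.88), PIM1 (0.86) and TARS1 (0.84). A high r with FABP4 was thus not particular to the listed genes. With the group means removed, r was 0.88 for FABP5 and 0.79 for CD36. Without SD day -24 replicate 3 and LD day -24 replicate 3 it was 0.74 for FABP5 and 0.67 for CD36, with an adjusted p of 0.421 for each. Neither was thus called without those arrays. They were chosen as the farthest from the FABP4 median, and fewer arrays over a narrower range make a call harder. The loss of the calls therefore does not show that the relations rest on those arrays alone.

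In SD day -24 replicate 3 the log2 signal was 10.48 for FABP5 and 11.43 for CD36, each the lowest of the 14 arrays, as was FABP4 with 10.46. PPARG, the master regulator of fat cell differentiation, gave r = 0.69 and rho = 0.63 with FABP4, and LPL gave r = 0.70 and rho = 0.72. These missed the threshold, with an adjusted p of 0.112 for PPARG and 0.126 for LPL (permutation test). PRKAR2B, a regulatory subunit of protein kinase A, came closer with r = 0.74 and rho = 0.79 (adjusted p = 0.0732 for r and 0.157 for rho). With the group means removed it gave r = 0.77 and was the only 1 of the 150 relations under the threshold (adjusted p = 0.0390), and without the 2 arrays farthest from the median it gave r = 0.78 (adjusted p = 0.360).

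CIDEC went with TRARG1, a protein that helps move the glucose transporter of fat and muscle to the membrane (r = 0.91, rho = 0.61, permutation test, adjusted p = 0.0060 for r and 0.426 for rho). It also went with AQP7, the glycerol channel of fat cells (r = 0.80, rho = 0.55, adjusted p = 0.0341 for r and 0.646 for rho). TRARG1 had log2 signals of 4.67, 4.61, 5.59 and 4.41 in SD day -9, against 4.94, 4.30, 5.48 and 4.64 in LD day -9. At day -24 its SD values lay within 4.49 and 4.51 and its LD values within 4.47 and 4.89. AQP7 lay between 2.74 and 4.03 in all 14 arrays, always below the lower quartile, which was 4.47 or more. The arrays SD day -9 replicate 3 and LD day -9 replicate 3 thus had the highest signals of CIDEC and of TRARG1. Without them r was 0.68 for TRARG1 (adjusted p = 0.421) and 0.53 for AQP7 (adjusted p = 0.479), so neither was called without those 2 arrays. Leaving them out also narrows the range of CIDEC, which by itself makes a call harder. With the group means removed r was 0.90 for TRARG1 and 0.78 for AQP7.

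**Figure D4:**
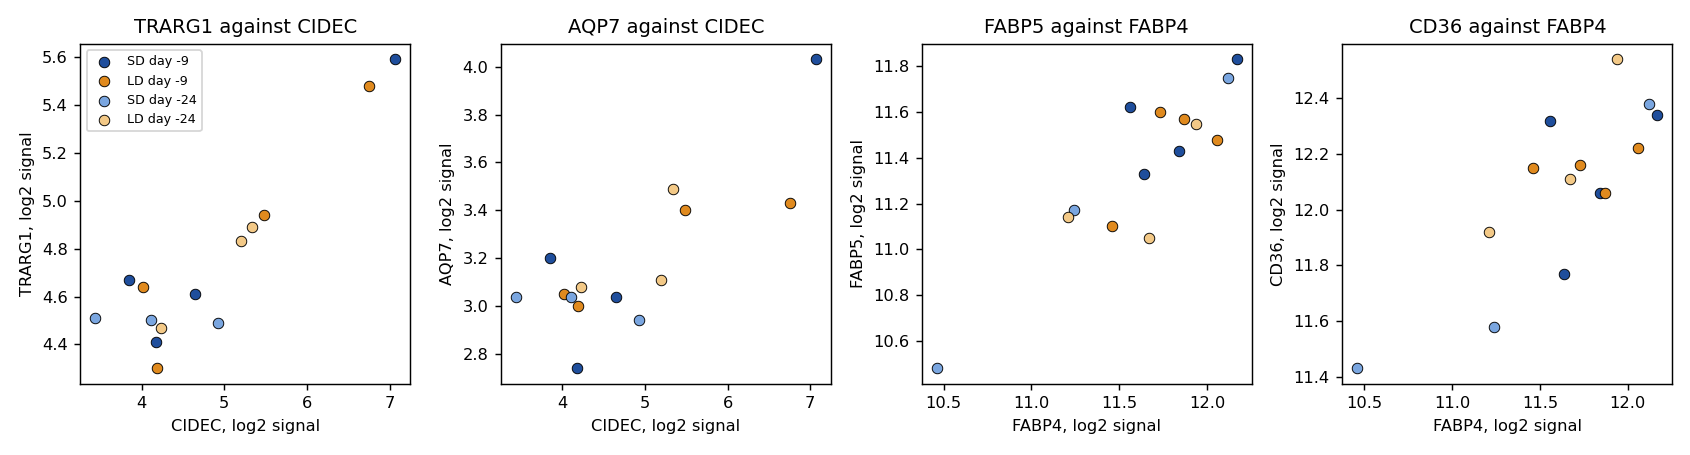
Log2 signal of TRARG1 and AQP7 against CIDEC and of FABP5 and CD36 against FABP4, 1 point per array (n = 14), coloured by group. The CIDEC values of 7.07 and 6.75 lie apart at the right of both CIDEC panels, and the FABP4 value of 10.46 lies apart at the lower left of both FABP4 panels.

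Levels of 10 marker lists of other cells were set against FABP4 and CIDEC, and none of the 20 relations had an adjusted p under 0.05. For FABP4, r was 0.53 with luminal epithelial markers, 0.09 with endothelial markers and 0.19 with macrophage markers. Without SD day -24 replicate 3 and LD day -24 replicate 3, r with the endothelial markers was 0.59 (permutation test, adjusted p = 0.222). The low value with all arrays thus rests on those arrays. Without them r was also 0.61 with skeletal muscle, 0.62 with erythrocyte and 0.59 with skin keratinocyte markers, each with the same adjusted p. The rise was thus not particular to the endothelial markers. For CIDEC, r was 0.57 and rho 0.61 with fibroblast and matrix markers (permutation test, adjusted p = 0.665 over the 20). Of the 14 luminal epithelial markers, the 9 endothelial, the 8 macrophage and the 11 fibroblast and matrix markers measured, 0 were below the lower quartile in all arrays. This count takes the brightest probe set of each gene, by which ADIPOQ alone of the members was below it. The 5 of 10 given above count every probe set. Such genes were 1 of 8 T cell, 2 of 7 skeletal muscle and 3 of 5 erythrocyte markers.

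Over 7597 named genes with a mean log2 signal of at least 5, the patterns most like the mean of the 5 members across the 14 arrays were those of CD300LG (r = 0.84), COP1 (0.71), MYH9 (0.68), CCDC66 (0.68), TIMP4 (0.67), PTHLH (0.66), PRKCH (0.66) and VAMP7 (0.65). The least like were SDHAF4 (r = -0.87), SCOC (-0.83), ZBTB49 (-0.80) and PAK1 (-0.80). CD300LG codes for a receptor of capillary endothelium and TIMP4 for an inhibitor of matrix proteases. The mean of the members was highest in SD day -9 replicate 3, at 0.72 above its own mean, and in LD day -9 replicate 3, at 0.55 above, the arrays of high CIDEC. CIDEC, with the widest spread, weighs most in this mean. MYH9 (r = 0.67) and SDHAF4 (-0.81) were also among the genes most and least like CIDEC alone. The named genes are the extremes of 7597 over 14 arrays, and their r was not tested.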

How the data were processed

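The authors' deposited table held 24128 probe sets of Affymetrix bovine arrays from 14 biopsies as log2 values made by RMA, per the submitters' processing notes, with software version not given in the sources used here. Per the labels' protocols, 2 µg of total RNA of integrity number above 7.0 was labelled from an oligo(dT) primer. Values were used as deposited. Arrays have no read depth, and their number limits the precision. Symbols came from the array annotation: 13292 probe sets carry 1 symbol, 86 several and 10638 none. The 112 control probe sets were left out. No genome or sequence was used here.

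The members and lists were chosen with earlier results of these data known. The main probe set of a gene is that of the highest mean. Group means of all 14 arrays were fitted together with limma 3.58.1 (R 4.3.3) without an intensity trend, with 7 contrasts, 2-sided tests and Benjamini-Hochberg adjustment over 24016 probe sets at a threshold of 0.05. The fit was tested on simulated data. List levels are means of log2 values, each centred on its gene's mean over arrays. Correlations had 2-sided permutation tests of 100000 resamples, adjusted within their family. Named list genes were the up to 4 of smallest p per list and comparison. Likeness named the 8 highest and 4 lowest genes. Alternatives were other variance moderation, a signal minimum of 5, median centring, array weights and arrays left out. Further ones were the replicate block, photoperiod with replicate number as a random block, a luminal covariate and the mean over probe sets.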

Additional observations from a re-analysis of the deposited data

How the results depend on the processing

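For the 5 genes and 7 comparisons, 742 of 798 values under alternatives kept their direction and 56 changed it. None passed the threshold, with a smallest adjusted p of 0.542 (limma). The cause of the changes was not tested. Without the pair of arrays that earlier work found low for a shared group of probe sets (replicate 4 of LD day -9, replicate 3 of SD day -24), SD minus LD at day -24 was 0.03 for ADIPOQ, 0.07 for FABP4 and -0.10 for LEP, and at day -9 it was -0.08 for FABP4. The day difference in SD was then -0.13 for ADIPOQ and 0.13 for LIPE, that averaged over photoperiods 0.03 for LIPE, the interaction -0.15 for FABP4, 0.20 for LIPE and -0.13 for CIDEC, and 1 probe set was called between days in SD. With array weights, FABP4 gave 0.11 at day -24, -0.08 at day -9, 0.01 averaged over days and -0.18 for the interaction. CIDEC gave 0.13 at day -9, and LIPE gave 0.09 between days in LD, 0.05 in SD and 0.07 averaged. With the luminal level as covariate, FABP4 gave -0.04 for SD minus LD at day -9 and -0.03 between days in LD, and CIDEC gave 0.02 at day -9. Between days LEP gave -0.40 in LD, -0.19 in SD and -0.29 averaged, and LIPE gave 0.05 in LD, 0.02 in SD and 0.03 averaged. The luminal level was itself higher at day -9 in each photoperiod, so as a covariate it can take up part of a day difference. With the mean of all probe sets LEP gave -0.01 for SD minus LD at day -24 and -0.04 between days in LD. Median centring gave -0.01 for ADIPOQ between days in SD.

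Leaving out each array in turn gave these ranges. ADIPOQ ran from -0.22 to 0.03 for SD minus LD at day -24, from -0.15 to 0.20 between days in SD and from -0.32 to 0.03 for the interaction. FABP4 ran from -0.76 to 0.07 for SD minus LD at day -24, from -0.10 to 0.12 at day -9, from -0.37 to 0.05 averaged over days, from -0.03 to 0.34 between days in LD and from -0.05 to 0.78 for the interaction. CIDEC ran from -0.88 to 0.38 at day -9, from -0.36 to 0.55 between days in LD and from -0.12 to 1.14 for the interaction. LEP ran from -0.10 to 0.26 at day -24. LIPE ran from -0.12 to 0.14 between days in LD, from -0.25 to 0.13 in SD, from -0.14 to 0.05 averaged and from -0.23 to 0.15 for the interaction. The count of probe sets called ran from 0 to 1 for days in SD (1 without SD day -24 replicate 3) and for SD minus LD averaged over days (1 without SD day -9 replicate 3).

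Arrays with the same replicate number deviated together in 9 of 19 pairs with r over 0.1 (range -0.34 to 0.33). These include pairs of SD with LD. Day -9 with day -24 gave 0.04, 0.22 and 0.25 within SD and 0.33, 0.19 and -0.31 within LD. Arrays of unlike number were not set beside these, so the values do not settle if the numbers mark cows. With the replicate block, ADIPOQ between days in SD was -0.03, no count of calls moved, and FABP4 between days in SD was 0.62 (adjusted p = 0.796, limma). That block is the replicate number alone, shared by SD and LD, so it does not stand for a cow. With photoperiod and replicate number as a random block, the consensus correlation was 0.056.

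With deviations from the group means, the adjusted p of r was 0.298 for FABP4 and FABP5 (r = 0.88), 0.357 for FABP4 and CD36 (0.79), 0.205 for CIDEC and TRARG1 (0.90) and 0.332 for CIDEC and AQP7 (0.78). It passed the threshold for FABP4 and PRKAR2B (r = 0.77, adjusted p = 0.0390) and for the brightest and dimmest LIPE probe sets (r = 0.74, adjusted p = 0.0149). Without the 2 arrays farthest from the median, r was 0.74 for FABP4 and FABP5, 0.67 for FABP4 and CD36, 0.68 for CIDEC and TRARG1 and 0.53 for CIDEC and AQP7, and 0.58 for ADIPOQ and LEP, against -0.44 with all arrays. Signals below or just above the lower quartile limit what ADIPOQ, LEP and LIPE can show. This limit also holds for CIDEC, which was below it in 7 of 14 arrays.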
